A study of Mus musculus with 4 samples.

Results

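The collagen genes are the 44 of 21884 measured genes whose symbol has the form Col, a number, the letter a and a number, taken by name and not by level. By textbook grouping 11 are fibrillar, 6 are type IV chains of basement membranes, 4 span the plasma membrane and 23 are of other kinds, such as beaded filaments, networks, fibril-associated collagens and multiplexins. They were measured in single nuclei of 4 whole hearts, each a library of its own, from wild-type males of the C57BL/6J strain. All of these offspring had received an injury at 1 day of age, and the heart was collected 21 days later, so no uninjured offspring heart is among the samples. The fathers of 2 hearts had a cardiac injury (injured-father libraries 1 and 2) and the fathers of the other two did not (uninjured-father libraries 1 and 2), and the comparison asks how offspring hearts differ with the father's injury. Which fathers and litters the hearts came from is not given in the sources used here, so p-values cover only these 4 samples. The tests also draw each gene's spread partly from that of other genes, so a small p-value rests on that borrowing too.

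Collagens are proteins of the extracellular matrix in which chains wind around each other in a triple helix. The fibrillar collagens I, III and V form the tension-bearing fibres of the heart, and fibroblasts are known as their main source. Type IV collagen forms the sheet beneath endothelial cells and around cardiomyocytes and smooth muscle, and its genes lie in head-to-head pairs. Fibril-associated collagens sit on the surface of fibres, type VI forms beaded filaments around cells, and membrane collagens carry a transmembrane stretch and can be shed.

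After filtering, the libraries held 6791 to 9536 nuclei and 15651493 to 32860627 UMIs (unique transcript molecules), with uninjured-father library 2 the shallowest. Of the barcodes of each library, 77 to 92 also occurred in another library. Nuclei fell into 14 classes, named by likeness to marker lists without collagens, and collagen genes were left out of the clustering. Levels are UMIs of a gene per 1000000 UMIs of the class (CPM), and library values stand in the order injured-father 1 and 2, then uninjured-father 1 and 2. CPM is not adjusted for gene length, nor are the ratios and shares of different collagens. Collagen UMIs also occurred in nuclei that should lack them, and the part of free RNA in this was not tested. Values in B lymphocyte-like nuclei, where collagens took 0.146% of UMIs, are given as a floor. In T or NK lymphocyte-like nuclei collagens took 0.197%, so the floor need not hold for every class. Adipocyte-like nuclei numbered 172, 115, 18 and 7 by library and mesothelial or epicardial-like nuclei 58, 61, 11 and 6, so those 2 classes rest mainly on the injured-father libraries. The latter cluster also had Dct, a pigment-cell gene, among its leading genes. The valve interstitial-like name is tentative. Its markers Comp (126 CPM against 4.17 in all other nuclei), Wif1 (109, 1.58), Fmod (89.6, 1.18), Adamts19 (331, 59.0) and Hapln1 (21.0, 1.54) were higher. Cytl1 (6.98, 7.97) and Cnmd (0, 0.857) were not. Postn and Thbs4 were among that cluster's leading genes, and the fibroblast list scored next (mean log2 fold 0.935 against 1.502).

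All 44 genes had at least 1 UMI, and 35 reached 20 CPM in at least 1 class of 200 nuclei or more. Of these 35, the highest level among such classes lay in valve interstitial-like nuclei for 11, fibroblast-like for 8, Schwann or glial-like for 6, endocardial-like for 4, and smooth muscle-like and vascular endothelial-like for 3 each. Levels across classes are a description without a test. When nuclei were instead classed one by one from marker scores, 29 kept their highest class. Col1a1, Col1a2, Col5a2, Col6a3 and Col8a1 then stood highest in fibroblast-like nuclei and Col18a1 in smooth muscle-like nuclei.

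**Figure D1:**
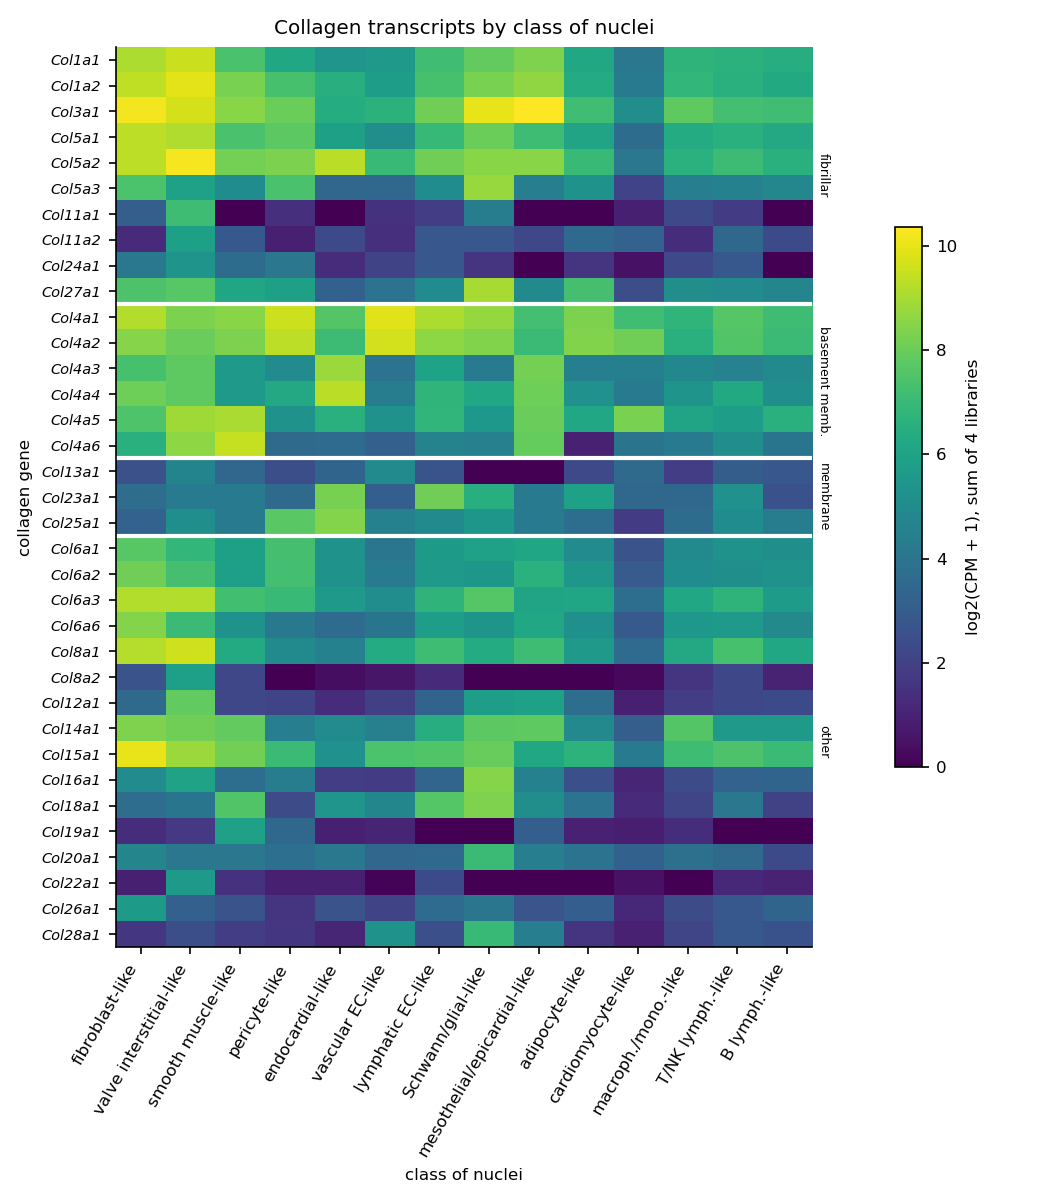
Level of the 35 collagen genes that reached 20 CPM (rows, by collagen kind) in the 14 named classes of nuclei (columns), on a log scale of the CPM summed over 4 libraries. Fibrillar genes are high in the fibroblast-like and valve interstitial-like columns, and the 3 type IV pairs peak in vascular endothelial-like, endocardial-like and smooth muscle-like nuclei (EC in the labels stands for endothelial).

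Collagen transcripts took 0.966% of UMIs in valve interstitial-like and 0.918% in fibroblast-like nuclei. Schwann or glial-like nuclei stood at 0.610%, smooth muscle-like at 0.467%, pericyte-like at 0.375%, endocardial-like at 0.339%, vascular endothelial-like at 0.274% and cardiomyocyte-like at 0.101%. The kind of collagen differed too. Fibrillar genes gave 43.8% of the collagen UMIs in fibroblast-like and 14.4% in vascular endothelial-like nuclei. Type IV genes gave 17.8% and 67.2% there, and 77.7% in cardiomyocyte-like nuclei. Membrane collagens gave 19.5% in endocardial-like, 5.94% in pericyte-like and 0.281% in fibroblast-like nuclei.

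Col1a1 and Col1a2 encode the chains of type I collagen, the main fibre of scar and interstitium. Col1a1 stood at 625, 482, 496 and 669 CPM in fibroblast-like nuclei and at 760.3, 575, 618 and 1099 in valve interstitial-like nuclei, against 87.4 over all B lymphocyte-like nuclei. Col1a2 stood at 725, 604, 636 and 764 CPM in fibroblast-like and at 997, 755, 873 and 1329 in valve interstitial-like nuclei. For both genes the 2 classes' ranges over libraries overlapped. The log2 ratio of Col1a1 to Col1a2 was -0.28 in fibroblast-like nuclei and -1.10 and -1.13 in pericyte-like and endocardial-like nuclei, where the balance of UMIs lay further toward Col1a2.

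Col3a1 encodes type III collagen, the fibre of compliant tissue. Unlike type I it was lower in valve interstitial-like nuclei (866, 811, 702 and 989.7 CPM) than in fibroblast-like nuclei (1189, 1019, 1181 and 1351) in each library. Schwann or glial-like nuclei held 841, 1037, 970.3 and 1314 CPM, overlapping the range of fibroblast-like nuclei, and mesothelial or epicardial-like nuclei of the injured-father libraries held 1295 and 1415. Col3a1 was thus highest of all 14 classes in that small class (1311 CPM over its libraries, against 1157 in fibroblast-like nuclei). The floor in B lymphocyte-like nuclei was 144.

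Col5a1, Col5a2 and Col5a3 encode chains of type V collagen, which nucleates fibres and limits their width. Col5a2 stood at 1118, 1391, 1054 and 1295 CPM in valve interstitial-like nuclei against 645, 634, 681 and 601 in fibroblast-like nuclei, without overlap. Endocardial-like nuclei held 595, 639, 646 and 636 CPM of Col5a2, as much as fibroblast-like nuclei, but only 75.3, 51.3, 51.1 and 65.3 of Col5a1, whose floor was 75.2. The log2 ratio of Col5a1 to Col5a2 was -3.41 there, the lowest of 14 classes, and -0.02 in fibroblast-like nuclei, the highest. Col5a3 was highest in Schwann or glial-like nuclei, at 429, 451, 396 and 509 CPM against 169.7 in fibroblast-like nuclei.

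Of the minor fibrillar genes Col11a1, a chain of the cartilage collagen XI, stood at 211, 56.3, 123 and 173 CPM in valve interstitial-like nuclei against 5.85 to 11.4 in fibroblast-like nuclei. Its partner chain Col11a2 stood at 60.4, 62.0, 42.0 and 80.6 CPM there, from 50 UMIs. Col24a1 gave 34 UMIs in valve interstitial-like nuclei and spread from 3.23 to 80.6 CPM, around 39.6 over all libraries, beside 35.2 in cluster 4 of the fibroblast-like nuclei. Col27a1, a fibrillar collagen known from cartilage, stood at 681, 393, 503 and 509 CPM in Schwann or glial-like nuclei, against 205 in valve interstitial-like and 177 in fibroblast-like nuclei.

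The 8016 fibroblast-like nuclei formed 3 clusters, called here by the 2 genes that led each against the other fibroblast-like nuclei: Grm8/Hunk (cluster 1, 3880 nuclei), Sntg1/Piezo2 (cluster 4, 2591 nuclei) and Cmah/Gfpt2 (cluster 6, 1545 nuclei). The last also carried Pi16, a gene known from adventitial fibroblasts, at 443 CPM against 74.9 in the other fibroblast-like nuclei. All collagens together took 0.909%, 0.957% and 0.885% of UMIs in that order, a narrow range, while single genes parted. Col3a1 stood at 876, 749, 826 and 1027 CPM in Grm8/Hunk nuclei and at 1602, 1278, 1571 and 1889 in Sntg1/Piezo2 nuclei, without overlap. In Cmah/Gfpt2 nuclei it stood at 1258, 1039, 1434 and 1516 CPM. Col1a1 ranged from 344 to 553 CPM in Grm8/Hunk nuclei, 533 to 846 in Sntg1/Piezo2 and 557 to 747 in Cmah/Gfpt2 nuclei.

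Grm8/Hunk nuclei held more of several other collagens. Among Col26a1, Col15a1 and Col4a1, the contrast was sharpest for Col26a1, a collagen with an emilin-type domain. It stood at 90.9, 79.7, 87.0 and 77.8 CPM against 17.7 to 19.2 in Sntg1/Piezo2 and 21.9 to 26.1 in Cmah/Gfpt2 nuclei. Col15a1, a multiplexin of the basement membrane zone, stood at 1411, 924, 1309 and 1312 CPM in Grm8/Hunk and at 873, 614, 902 and 954 in Sntg1/Piezo2 nuclei, higher in the former in each library. Cmah/Gfpt2 nuclei held 1107, 796, 1114 and 1315 CPM of it, and injured-father library 2 was the lowest in all 3 clusters. Col4a1 ranged from 664 to 789.8 CPM in Grm8/Hunk nuclei, above 374 to 497 and 356 to 549.9 in the other two.

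Col4a6, a basement membrane chain, was highest in Sntg1/Piezo2 nuclei, at 203, 171, 214 and 161 CPM against at most 65.5 in Grm8/Hunk and 85.3 in Cmah/Gfpt2 nuclei. Col24a1 was also highest there, at 35.2 CPM against 9.87 and 5.92. Col6a6, a chain of type VI collagen, was lowest in Cmah/Gfpt2 nuclei (132 to 248 CPM, against 362 to 459 and 313 to 456). Col14a1, a fibril-associated collagen, was lowest in Grm8/Hunk nuclei (130.1 to 248 CPM, against 347 to 539 and 350.3 to 509.6). By library, Sntg1/Piezo2 nuclei made up 32.6%, 40.3%, 29.0% and 25.6% of fibroblast-like nuclei and Grm8/Hunk nuclei 46.4%, 41.4%, 51.0% and 56.6%. These shares moved with the father group, so father differences are also given within clusters.

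**Figure D2:**
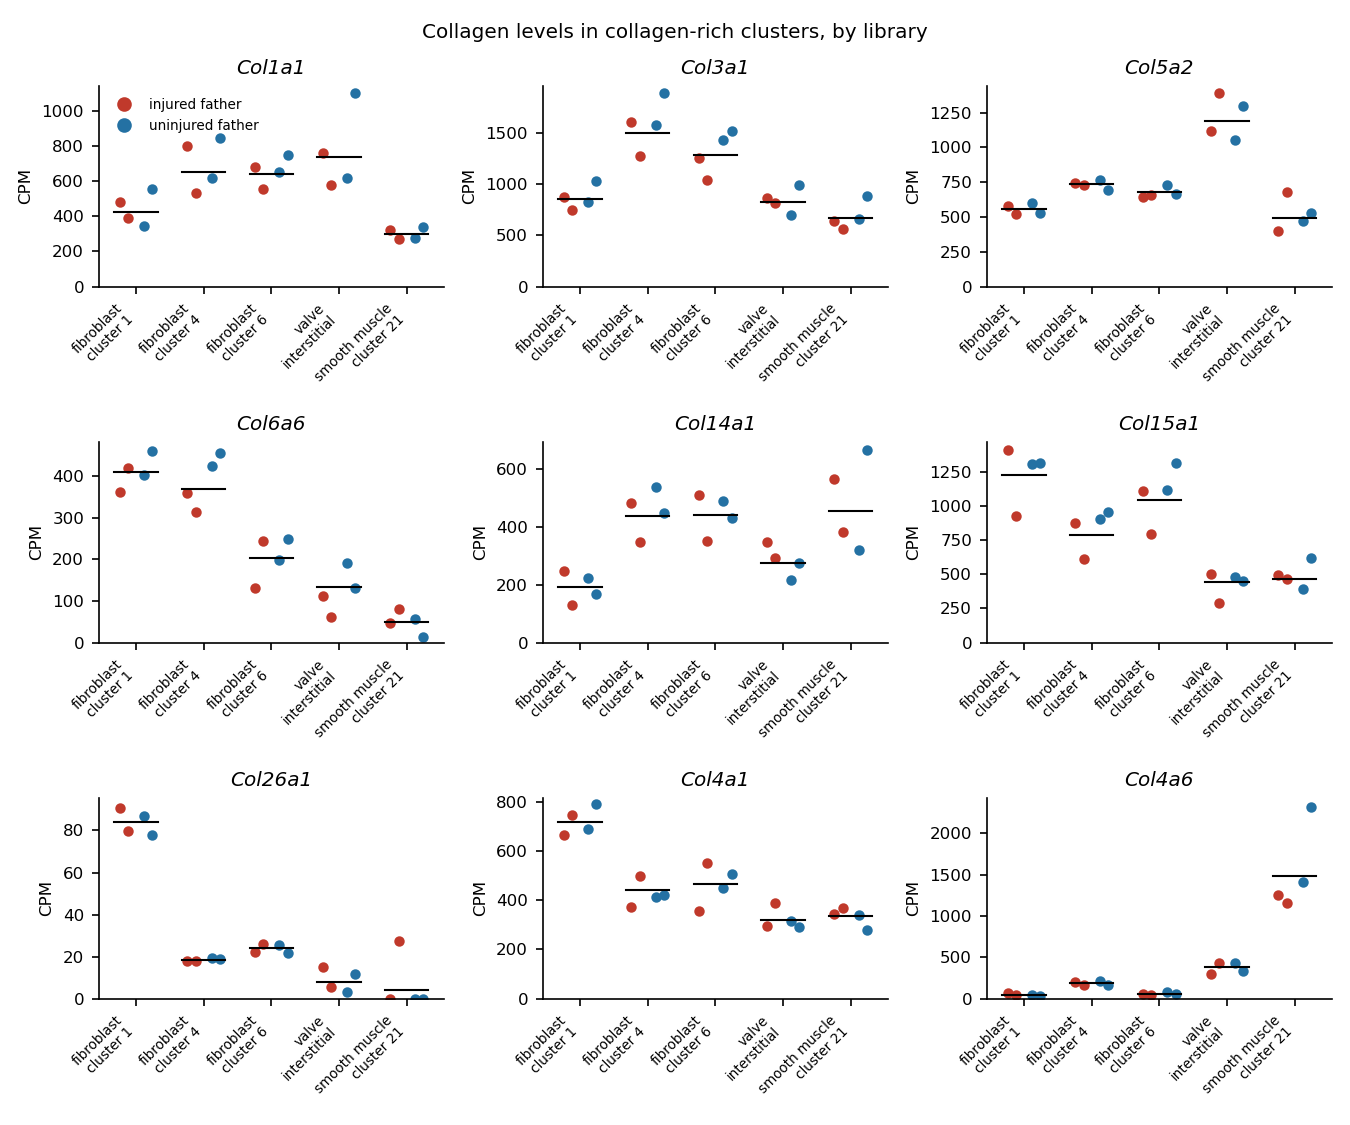
Level of collagen genes in CPM in the 3 fibroblast-like clusters (cluster 1 is Grm8/Hunk, cluster 4 Sntg1/Piezo2, cluster 6 Cmah/Gfpt2), valve interstitial-like nuclei and smooth muscle-like cluster 21, the Itga8 cluster. Each point is 1 library and the bar is the level over 4 libraries. Of the fibroblast-like clusters, cluster 1 holds the highest bars of Col26a1, Col15a1 and Col4a1 and cluster 4 those of Col3a1 and Col4a6.

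The windows around the starts of type IV genes are shown because these genes lie in head-to-head pairs, of which Col4a5 and Col4a6 parted most in level across classes. In GENCODE M21 (GRCm38) the starts of Col4a1 and Col4a2 on chromosome 8 lie 21 bases apart, those of Col4a3 and Col4a4 on chromosome 1 lie 72 apart, and those of Col4a5 and Col4a6 on chromosome X lie 1309 apart. The RefSeq windows (GRCm38.p6, 250 bases before to 50 after the start) run 5′ to 3′ on the gene's strand, with 3 promoter motifs in capitals where they occur on either strand. These are the TATA box, searched as TATAAA, the CCAAT box, searched as CCAAT, and the GC box, searched as GGGCGG. Those of Col4a1 and Col4a2 overlap on opposite strands, and that of Col4a4 covers the GENCODE start of Col4a3.
Col4a1, chr8:11312777-11313076, minus strand: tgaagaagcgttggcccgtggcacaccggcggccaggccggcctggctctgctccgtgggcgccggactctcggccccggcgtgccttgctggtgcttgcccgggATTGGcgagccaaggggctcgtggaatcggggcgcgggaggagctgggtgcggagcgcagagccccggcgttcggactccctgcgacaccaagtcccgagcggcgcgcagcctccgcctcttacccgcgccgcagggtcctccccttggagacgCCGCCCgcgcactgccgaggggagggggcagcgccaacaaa
Col4a2, chr8:11312555-11312854, plus strand: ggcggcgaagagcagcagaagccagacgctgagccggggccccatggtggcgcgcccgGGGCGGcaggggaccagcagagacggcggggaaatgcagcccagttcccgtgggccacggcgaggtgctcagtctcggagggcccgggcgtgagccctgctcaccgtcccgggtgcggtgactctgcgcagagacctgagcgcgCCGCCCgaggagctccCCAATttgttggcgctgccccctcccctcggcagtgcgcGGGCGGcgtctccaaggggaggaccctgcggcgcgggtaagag
Col4a4, chr1:82586800-82587099, minus strand: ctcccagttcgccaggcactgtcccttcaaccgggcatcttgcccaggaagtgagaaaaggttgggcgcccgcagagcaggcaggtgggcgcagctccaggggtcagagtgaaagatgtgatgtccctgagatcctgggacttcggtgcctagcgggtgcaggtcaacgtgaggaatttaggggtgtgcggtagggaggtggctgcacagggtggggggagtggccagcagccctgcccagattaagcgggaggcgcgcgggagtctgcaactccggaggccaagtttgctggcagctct
Col4a5, chrX:141475169-141475468, plus strand: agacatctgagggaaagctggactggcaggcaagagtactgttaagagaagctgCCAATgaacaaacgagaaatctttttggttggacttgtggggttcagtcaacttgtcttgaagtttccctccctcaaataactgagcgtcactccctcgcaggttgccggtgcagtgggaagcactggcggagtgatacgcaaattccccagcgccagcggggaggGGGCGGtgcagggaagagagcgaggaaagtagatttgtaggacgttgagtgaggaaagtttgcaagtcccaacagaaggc
Col4a6, chrX:141474027-141474326, minus strand: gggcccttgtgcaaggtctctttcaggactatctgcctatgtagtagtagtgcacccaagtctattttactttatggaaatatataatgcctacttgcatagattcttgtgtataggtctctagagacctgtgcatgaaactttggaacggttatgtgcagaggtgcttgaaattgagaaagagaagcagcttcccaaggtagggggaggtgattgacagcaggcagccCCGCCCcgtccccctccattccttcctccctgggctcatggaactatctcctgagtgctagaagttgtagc

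GGGCGG occurs in each of these windows except that of Col4a4, and TATAAA in none. Over the 38 windows of the 35 collagen genes that had one, 60.5% held GGGCGG, 34.2% CCAAT and 13.2% TATAAA, against 35.7%, 37.4% and 13.6% of 32851 windows of all genes. None of the matches overlap in the windows printed, and a match describes letters only.

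Col4a1 and Col4a2 make the common sheet of basement membranes. Vascular endothelial-like nuclei held 944, 799, 1074 and 1061 CPM of Col4a1 and 782, 729, 903 and 892 of Col4a2, and pericyte-like nuclei 683, 761, 759 and 849.8 and 589, 671, 643 and 666. Within the vascular endothelium the level split by cluster. Col4a1 stood at 1284 CPM in the cluster led by Fabp4 and Btnl9, genes of capillary endothelium, and at 1090.1 in that led by Ablim3 and Ccdc85a. It stood at 489 in the cluster led by Kirrel3 and Lhx6, and at 420.4 in that led by Sema3g, which also carried the arterial gene Gja5. In cardiomyocyte-like nuclei the balance was reversed, with 129, 135, 165 and 148 CPM of Col4a1 against 218, 279, 305 and 294 of Col4a2. The floor was 141 and 134 CPM, so Col4a1 there stood around it and Col4a2 above it. That floor may be too high for cardiomyocyte-like nuclei, where fibrillar genes took 0.0114% of UMIs against 0.0534% in B lymphocyte-like nuclei. Type IV genes took 0.0785% and 0.0450% in that order. The part of free RNA in the cardiomyocyte-like Col4a1 level was not tested.

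Col4a3 and Col4a4 encode chains known from the glomerular basement membrane of the kidney. Here they were highest in endocardial-like nuclei, at 397, 348, 573 and 576 CPM for Col4a3 and 519.9, 483, 852 and 835 for Col4a4, against 11.8 to 19.2 and 17.5 to 21.5 in vascular endothelial-like nuclei. Fibroblast-like nuclei held 161 and 267 CPM. Cardiomyocyte-like nuclei as a class held 21.0 and 18.9. A cardiomyocyte-like cluster of 288 nuclei, with Cntn2, a gene known from the Purkinje fibres of the heart, among its leading genes, held 209, 219.8, 282 and 471 CPM of Col4a3 and 131, 172, 318 and 242 of Col4a4. In the main cardiomyocyte-like cluster they stood at 14.9 and 13.3.

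Col4a5 and Col4a6, the X-linked pair, parted most. Smooth muscle-like nuclei held 498, 421, 617 and 489.8 CPM of Col4a5 and 655, 513, 706 and 1016 of Col4a6. The smaller of 2 smooth muscle-like clusters, with Itga8 among its leading genes, held 1258, 1157, 1418 and 2316 CPM of Col4a6 against 105, 228, 85.4 and 114 in the larger. Cardiomyocyte-like nuclei held Col4a5 at 304, 331, 301 and 276 CPM, above its floor of 95.5, and Col4a6 at 15.3, 17.5, 14.9 and 9.53, around its floor of 15.2. Among them Col4a6 stood at 5.60 CPM in the main cluster, 57.6 in the cluster that carried the atrial genes Nppa and Myl4, and 223 in the Cntn2 cluster. The log2 ratio of Col4a5 to Col4a6 was 4.27 in cardiomyocyte-like and -0.43 in smooth muscle-like nuclei.

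**Figure D3:**
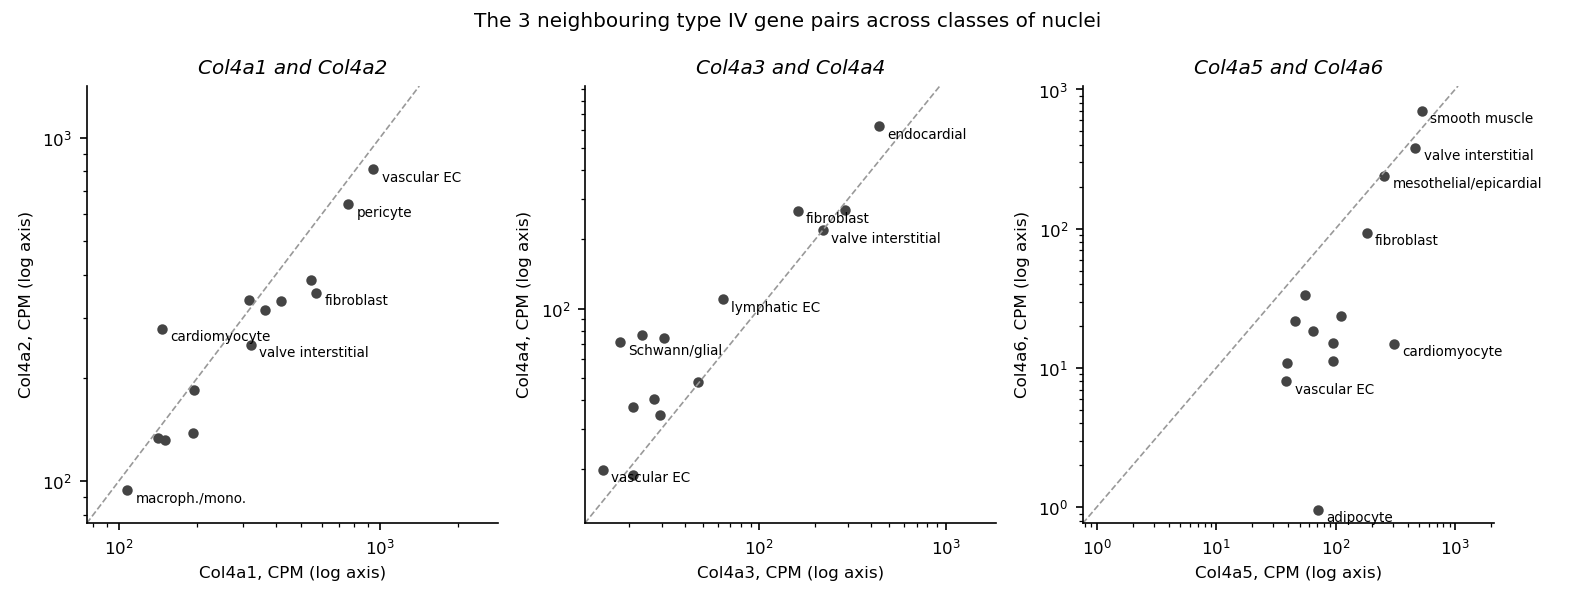
Level of the 2 partners of each type IV pair, in CPM on log axes, with 1 point per class of nuclei and a dashed line at equal CPM (EC stands for endothelial). Col4a1 and Col4a2 keep within a log2 ratio of -0.93 to 0.69, whereas Col4a5 and Col4a6 range from -0.43 to 5.22.

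Col6a1, Col6a2 and Col6a3 supply the chains of the type VI filament. Fibroblast-like nuclei held 205, 276 and 569.8 CPM of them (11.8, 9.91 and 7.30 per kilobase of gene) and pericyte-like nuclei 155, 153 and 128 (8.92, 5.49 and 1.64). The log2 ratio of Col6a1 to Col6a3 accordingly moved from -1.47 to 0.28 between these classes, and was -2.31 in valve interstitial-like nuclei. That of Col6a1 to Col6a2 stayed between -0.51 and 0.44. Col6a6 was highest in fibroblast-like nuclei, at 301, 339, 357 and 411 CPM.

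Col8a1 encodes a short-chain network collagen of the vessel wall. Over all libraries it stood at 775 CPM in valve interstitial-like and 586 in fibroblast-like nuclei. Among vascular endothelial-like nuclei it was highest in the Sema3g cluster, at 376, 364, 454 and 718 CPM, against 120.3, 89.0, 178 and 162 in the Kirrel3 cluster. Its partner Col8a2 stood at 45.3, 33.8, 29.1 and 144 CPM in valve interstitial-like nuclei, from 49 UMIs, and at 5.26 in fibroblast-like nuclei.

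Several fibril-associated collagens and multiplexins marked small classes. Col12a1, known from tendon and ligament, stood at 282, 169, 178 and 328 CPM in valve interstitial-like against 9.43 to 12.3 in fibroblast-like nuclei. Col22a1, known from muscle-tendon junctions, stood at 30.2, 33.8, 48.5 and 80.6 CPM there, from 41 UMIs. Schwann or glial-like nuclei, a class of 239, were highest for Col16a1 (328, 348, 408 and 279 CPM) and for Col18a1, the precursor of endostatin (420.4, 238, 278 and 493). They were also highest for Col20a1 (143, 122, 142 and 115 CPM) and for Col28a1, known from peripheral nerve (159.8, 103, 148 and 82.1). Col28a1 also occurred in the Ablim3 endothelial cluster, at 53.0, 90.6, 51.1 and 50 CPM. Col18a1 stood at 195 CPM in lymphatic endothelial-like nuclei and at 304 in the Itga8 smooth muscle-like cluster. Col19a1 was highest in smooth muscle-like nuclei, at 65.9, 25, 67.3 and 82.5 CPM.

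Of the 14 classes, membrane collagens took the largest shares of UMIs in endocardial-like (0.0662%), lymphatic endothelial-like (0.0317%) and pericyte-like nuclei (0.0223%). Schwann or glial-like nuclei came next (0.0135%), above vascular endothelial-like (0.00601%) and smooth muscle-like nuclei (0.00463%). Col23a1 stood at 270, 282, 354 and 329 CPM in endocardial-like and 225, 250.3, 306 and 416 in lymphatic endothelial-like nuclei, against 4.14 to 10.8 in vascular endothelial-like nuclei. Col25a1, known for binding amyloid in brain and for motor axon growth in muscle, stood at 412, 464, 186 and 148 CPM in endocardial-like and 232, 163, 216 and 229.6 in pericyte-like nuclei. Col13a1, a protein of neuromuscular synapses, stood at 72.2, 87.0, 116 and 141 CPM in the Kirrel3 endothelial cluster, against 5.96, 4.57 and 1.5 in the Fabp4, Ablim3 and Sema3g clusters.

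The 9 genes under 20 CPM in every class of 200 nuclei or more were Col2a1, Col6a4, Col6a5, Col7a1, Col9a1, Col9a2, Col9a3, Col10a1 and Col17a1. Their UMIs over all nuclei ran from 14 (Col6a4) to 232 (Col7a1). The highest among them in such a class was Col9a3, a cartilage collagen, at 15.9 CPM in Schwann or glial-like nuclei, from 8 UMIs.

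Offspring of injured and uninjured fathers were compared class by class on each library's summed UMIs, with edgeR's quasi-likelihood test and Benjamini-Hochberg adjustment over all genes tested in the class. In these classes 1 collagen passed an adjusted p of 0.05: Col25a1 in endocardial-like nuclei, 1 of 20 collagens tested, where 0.0241% of all genes were called. There 4 had an unadjusted p under 0.05, as had 4.82% of all genes. In all nuclei together 0 of 40 passed (0.101% of genes called), with 3 at an unadjusted p under 0.05, as had 6.99% of all genes. By edgeR, 0 passed of 33 in cardiomyocyte-like (0.00799% of genes called), 34 in fibroblast-like (0.0325%), 29 in vascular endothelial-like (0%) and 26 in pericyte-like nuclei (0.0698%). Likewise 0 passed of 21 in smooth muscle-like (0%) and 22 in macrophage or monocyte-like nuclei (0%). An unadjusted p under 0.05 was found for 2 of 33 collagens in cardiomyocyte-like (4.26% of genes), 5 in fibroblast-like (3.58%), 4 in vascular endothelial-like (5.05%), 2 in pericyte-like (4.19%), 3 in smooth muscle-like (3.97%) and 4 in macrophage or monocyte-like nuclei (4.89%). The remaining collagens of each class were below the count filter, 4 in all nuclei and 10 in fibroblast-like nuclei.

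Most collagens had negative differences (injured minus uninjured fathers, log2) without passing the test, except in valve interstitial-like nuclei, where 13 were positive and 12 negative with a median of 0.01. The median over those tested was -0.13 in all nuclei, -0.10 in fibroblast-like, -0.20 in endocardial-like, -0.40 in macrophage or monocyte-like, -0.08 in pericyte-like, -0.10 in smooth muscle-like, -0.04 in vascular endothelial-like and -0.02 in cardiomyocyte-like nuclei, where that of all genes lay between -0.01 and 0.00. Collagens took 0.935% and 0.815% against 0.948% and 1.05% of UMIs in fibroblast-like nuclei, injured against uninjured fathers, with means of 0.875% ± 0.0848 and 1.00% ± 0.0733 (SD, n = 2). The share was 0.328% and 0.317% against 0.371% and 0.376% in endocardial-like, 0.272% and 0.242% against 0.301% and 0.300% in vascular endothelial-like and 0.367% and 0.362% against 0.376% and 0.402% in pericyte-like nuclei. Of the 12 classes with at least 20 nuclei in every library the shares of the groups lay apart in 7, lower with injured fathers in each, and overlapped in 5. Those 5 were smooth muscle-like (0.484% and 0.383% against 0.478% and 0.523%), valve interstitial-like (1.01% and 0.931% against 0.909% and 1.05%), lymphatic endothelial-like, T or NK lymphocyte-like and B lymphocyte-like nuclei (0.164% and 0.0995% against 0.132% and 0.206%). The 7 included cardiomyocyte-like and macrophage or monocyte-like nuclei, with shares of 0.101% and 0.168% over all libraries. These lay below or near the 0.146% of B lymphocyte-like nuclei. All 12 classes came from the same 4 hearts, so they are not separate observations. Of single genes, 29.6% in fibroblast-like and 33.1% in endocardial-like nuclei had groups that did not overlap, in either direction. An exact permutation test of 2 hearts against 2 cannot give a p under 0.333.

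**Figure D4:**
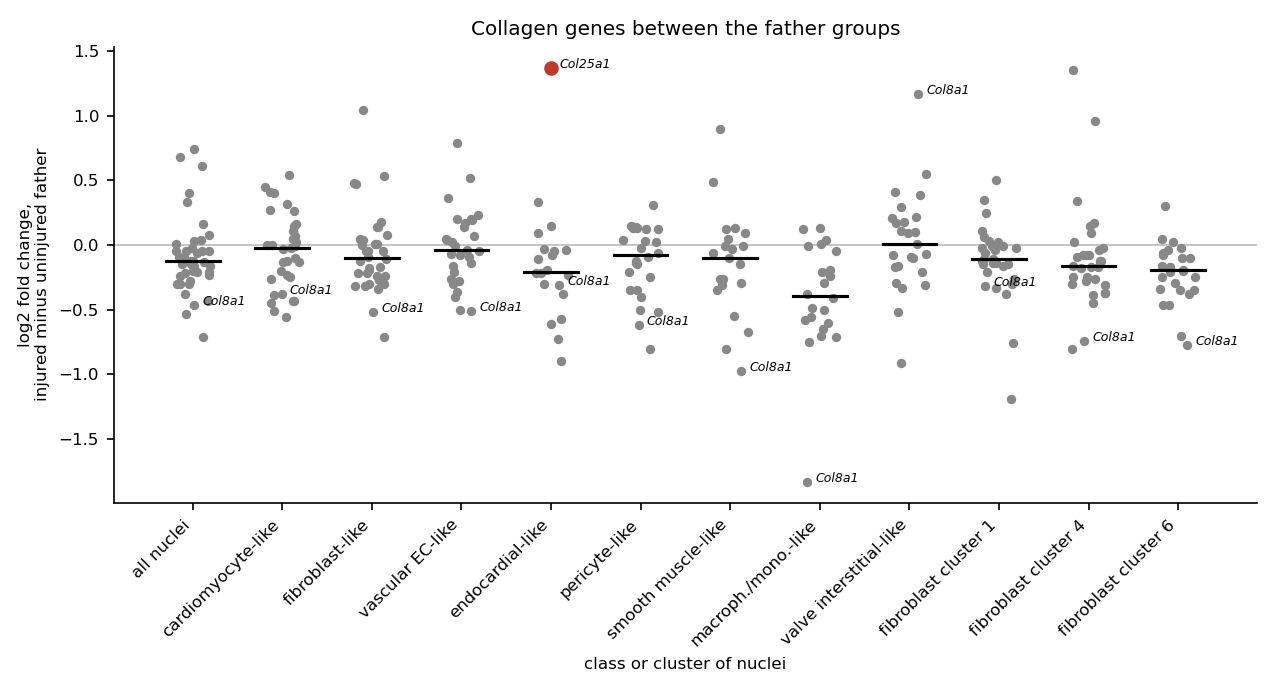
Log2 difference of each tested collagen gene, injured minus uninjured fathers, by class or cluster of nuclei, with 1 point per gene and a bar at the median. Col25a1 in endocardial-like nuclei, at 1.37, is the 1 collagen past an adjusted p of 0.05, drawn red, and Col8a1 lies below 0 in every column but that of valve interstitial-like nuclei.

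Col25a1 was higher in endocardial-like nuclei of offspring of injured fathers. Levels after edgeR's library scaling (TMM-scaled CPM) were 421 and 483 against 195 and 146, from 328, 642, 157 and 52 UMIs, so both injured-father hearts lay well above both others. The log2 difference was 1.37 (SE 0.19, edgeR adjusted p = 0.0115). With nuclei classed by marker score it was 1.22 and did not pass (adjusted p = 0.0577). A Col25a1 UMI was found in 31.9% and 34.4% against 21.5% and 16.9% of endocardial-like nuclei, at median depths of 2331.0, 2845.0, 2527.0 and 1748.5 UMIs. Thinned to 1000 UMIs per nucleus, which left out 20, 6, 16 and 21 shallower nuclei, the shares were 21.9% and 21.9% against 12.5% and 11.1%. In B lymphocyte-like nuclei, which should lack the gene, 3.14% and 1.49% against 1.05% and 0% had a UMI (9, 2, 2 and 0 nuclei), a background that was also higher with injured fathers (the 0 of 70 nuclei allows up to 4.29%), at median depths of 1143.0, 1312.0, 1135.5 and 985.5 UMIs.

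The windows of Col25a1 and Col8a1 are shown because these 2 genes are the ones called by the tests, Col25a1 in a class and Col8a1 in a difference between classes, with capitals as above. The RefSeq start of Col25a1 lies inside its longer GENCODE gene.
Col25a1, chr3:130180595-130180894, plus strand: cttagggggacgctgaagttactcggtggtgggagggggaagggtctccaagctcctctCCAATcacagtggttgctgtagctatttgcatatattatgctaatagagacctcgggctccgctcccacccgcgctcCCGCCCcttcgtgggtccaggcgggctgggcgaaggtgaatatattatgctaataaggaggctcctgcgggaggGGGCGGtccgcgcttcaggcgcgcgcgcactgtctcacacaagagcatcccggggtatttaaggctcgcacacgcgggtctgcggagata
Col8a1, chr16:57754688-57754987, minus strand: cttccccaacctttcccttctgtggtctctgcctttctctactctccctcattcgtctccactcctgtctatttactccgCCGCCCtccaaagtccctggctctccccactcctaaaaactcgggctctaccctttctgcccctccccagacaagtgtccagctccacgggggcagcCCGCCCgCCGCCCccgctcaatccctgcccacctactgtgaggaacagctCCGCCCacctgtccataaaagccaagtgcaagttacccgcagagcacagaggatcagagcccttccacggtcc

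Outside the endocardium Col25a1 passed in no class. In vascular endothelial-like nuclei it stood at 25.8 and 29.4 against 15.8 and 16.3 TMM-scaled CPM (0.79, SE 0.20, adjusted p = 0.883), and in all nuclei at 40.9 and 43.4 against 25.5 and 25 (0.74, SE 0.11, adjusted p = 0.116). A level in all nuclei cannot tell more RNA per nucleus from more nuclei of a class. In pericyte-like nuclei, the other main site, the groups overlapped, at 237 and 166 against 221 and 223 (-0.15, SE 0.16). The endocardial-like minus pericyte-like difference in father effect was 1.53 (SE 0.22, edgeR adjusted p = 0.00168, 1 of 28 collagens called beside 0.0195% of genes, 4 at an unadjusted p under 0.05 beside 5.18%). With nuclei classed by marker score it was 1.33 and did not pass (adjusted p = 0.267). Against vascular endothelial-like nuclei it was 0.58 (SE 0.25, adjusted p = 0.915, 0 of 27 called beside 0.0371% of genes, 4 at an unadjusted p under 0.05, as had 5.34% of genes). These classes were paired after their values were seen.

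Other measures moved with the groups. The cardiomyocyte-like cluster with Nppa and Myl4 made up 9.45%, 12.1%, 6.27% and 2.27% of cardiomyocyte-like nuclei by library, and endocardial-like nuclei numbered 288, 424, 275 and 172. In endocardial-like nuclei the 8 endocardial markers summed to 12554, 15719.8, 15569 and 14143 CPM, overlapping between groups, and the 9 pericyte markers to 168, 274, 513 and 343, lower with injured fathers, with none of either list at 0. Of 17 marker lists 7 summed to lower values in both injured-father libraries, 2 to higher values and 8 overlapped. The cardiomyocyte list summed to 4932, 5074, 5471 and 6058 CPM, the fibroblast list to 2537, 2518, 2709.5 and 2998 and the macrophage or monocyte list to 254, 236, 207 and 202. An unnamed cluster of 274 nuclei with endocardial leading genes and 735 CPM of Col3a1 was kept out of the class, and held Col25a1 at 234, 259, 147 and 134 CPM. The part of these measures in the Col25a1 result was not tested.

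Col8a1 had father differences of opposite sign in 2 classes. In fibroblast-like nuclei it stood at 463 and 519 against 695 and 716 TMM-scaled CPM, without overlap (-0.52, SE 0.13, adjusted p = 0.872). In valve interstitial-like nuclei, a class tested after the data were seen, it stood at 1150.0 and 1454 against 661 and 483, from 197, 220, 177 and 72 UMIs (1.17, SE 0.24, adjusted p = 0.103). There 0 of 25 collagens passed in edgeR beside 0.0246% of genes, with 3 at an unadjusted p under 0.05, as had 4.02% of genes. Neither effect passed on its own, but the difference between them did, at 1.68 (SE 0.22, edgeR adjusted p = 9.34e-11, 1 of 36 collagens called beside 0.0433% of genes, 3 at an unadjusted p under 0.05 beside 4.35%). Valve interstitial-like nuclei numbered 67, 63, 91 and 70 by library. Thinned to 1000 UMIs, 24.7% and 26.2% against 30.3% and 32% of fibroblast-like and 28.6% and 23.5% against 20.1% and 16.7% of valve interstitial-like nuclei had a UMI, and unthinned 36.5% and 40.3% against 43.5% and 41.3% and 37.3% and 34.9% against 29.7% and 22.9%. In B lymphocyte-like nuclei the unthinned shares were 3.48% and 5.97% against 5.26% and 7.14%. Cardiomyocyte markers in valve interstitial-like nuclei summed to 3968, 6546, 4715 and 10616 CPM, highest in uninjured-father library 2, and fibroblast markers to 8762, 9436, 8424 and 7981, higher with injured fathers. Of 17 lists 4 were lower and 3 higher in both injured-father libraries. Their part in the result was not tested.

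Within fibroblast-like clusters Col8a1 was also at lower values with injured fathers. Grm8/Hunk nuclei held 606 and 622 against 827 and 703 TMM-scaled CPM (-0.32, SE 0.15). Sntg1/Piezo2 nuclei held 372 and 577 against 676 and 932 (-0.74, SE 0.18), and Cmah/Gfpt2 nuclei 338 and 256 against 468 and 546 (-0.77, SE 0.16). The groups did not overlap in any of the 3, with edgeR adjusted p of 1.000, 0.359 and 0.991. By edgeR 0 collagens passed of 30, 31 and 26 tested in these clusters, where 0.0277%, 0.0198% and 0.0102% of genes were called, with 0, 6 and 5 at an unadjusted p under 0.05, as had 2.76%, 4.38% and 3.38% of genes. Values were negative in vascular endothelial-like (-0.51), pericyte-like (-0.62), smooth muscle-like (-0.97) and macrophage or monocyte-like nuclei (-1.83) as well. In the last they were 46.4 and 35.5 against 78.6 and 229.7 TMM-scaled CPM (adjusted p = 0.195). The floor of Col8a1 was 71.1 CPM, and over all libraries these classes held 81.6, 29.9, 79.2 and 75.9 CPM, below or near it. Pericyte-like, smooth muscle-like and macrophage or monocyte-like values are thus not told apart from this floor. Within vascular endothelial-like nuclei the Sema3g and Kirrel3 clusters described above stood over this floor in each library. The part of free RNA in the vascular endothelial-like difference was not tested.

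**Figure D5:**
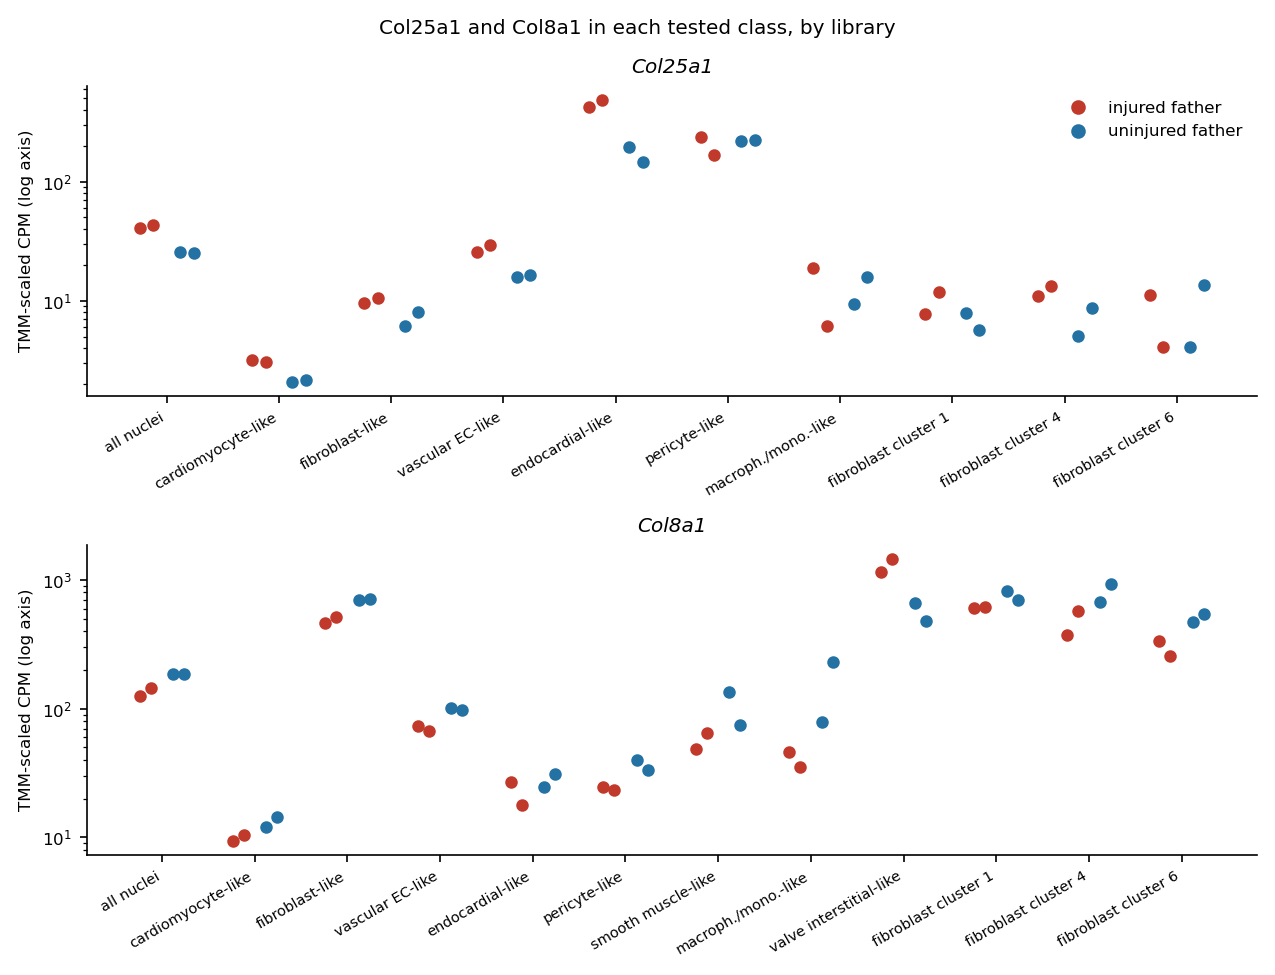
TMM-scaled CPM (log axis) of Col25a1 and Col8a1 by class of nuclei, 1 point per library, coloured by father group. The groups lie apart for Col25a1 in endocardial-like nuclei (421 and 483 against 195 and 146) and mix in pericyte-like nuclei, and for Col8a1 their order in valve interstitial-like nuclei is opposite to that in fibroblast-like nuclei.

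Fibroblast-like nuclei gave 44.1% of all Col4a3 UMIs and 49.7% of all Col4a4 UMIs, and endocardial-like nuclei 19.9% and 19.1%. In endocardial-like nuclei, where their levels were highest, both genes had lower values with injured fathers. Col4a4 stood at 531 and 503 against 890.0 and 826 TMM-scaled CPM (-0.73, SE 0.17, adjusted p = 0.277). Col4a3 stood at 406 and 362 against 598 and 570.0 (-0.61, SE 0.16, adjusted p = 0.618). The groups did not overlap for either gene, yet neither passed. Thinned shares of nuclei with a Col4a4 UMI were 31.1% and 31.1% against 49.7% and 43.4%, and unthinned 48.3% and 53.1% against 69.1% and 54.7%, beside 5.23% and 7.46% against 1.58% and 1.43% in B lymphocyte-like nuclei. The fibroblast, cardiomyocyte and pericyte markers given above for this class were likewise lower with injured fathers, and their part in these values was not tested. The differences were -0.32 and -0.34 for Col4a4 and Col4a3 in fibroblast-like nuclei. In cardiomyocyte-like nuclei they were -0.56 and -0.51, but over the class both genes stood below their floors of 34.5 and 29.5 CPM. As given above for Col4a1, such floors may be too high for cardiomyocyte-like nuclei. The Cntn2 cluster within that class held 236 CPM of Col4a4 and 277 of Col4a3, above those floors. The part of free RNA in the class differences was not tested.

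In fibroblast-like nuclei 14 of 34 tested collagens had groups that did not overlap, where 29.6% of all genes did. Fibrillar genes had 7 negative and 2 positive values, type IV genes 4 and 2, membrane genes 0 and 3 and the others 10 and 6. Col11a1 stood at 5.86 and 6.23 against 9.09 and 11.1 TMM-scaled CPM (-0.71, SE 0.29). Col13a1 stood at 5.86 and 6.84 against 3.77 and 2.10 (1.04, SE 0.39), Col24a1 at 18 and 20.1 against 15.4 and 11.7 (0.47, SE 0.23) and Col25a1 at 9.47 and 10.6 against 6.18 and 8.08 (0.53, SE 0.29). For Col4a6 the groups overlapped (105 and 93.0 against 102 and 69.7). Each had an edgeR adjusted p of 1.000. Col13a1 stood at 17.1 and 13.8 against 5.05 and 7.37 in Sntg1/Piezo2 nuclei (1.35, SE 0.45, adjusted p = 0.849), where Col25a1 had 0.96 and Col4a3 -0.45. In Cmah/Gfpt2 nuclei Col4a4 had -0.46, Col16a1 0.30 and Col4a5 0.05. In Grm8/Hunk nuclei Col8a2 had -1.19, from 7, 4, 17 and 9 UMIs, Col25a1 0.50 and Col4a6 0.35.

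Col15a1 had lower values with injured fathers in classes where it stands near its floor of 132 CPM. Pericyte-like nuclei held 138 and 65.3 against 157 and 197 TMM-scaled CPM (-0.80, SE 0.20, adjusted p = 0.340) and vascular endothelial-like nuclei 185 and 114 against 206 and 213 (-0.50, SE 0.19, adjusted p = 0.952). Injured-father library 2 was lowest in both, as in fibroblast-like nuclei (1175 and 788 against 1175 and 1188). Without injured-father library 1 the pericyte-like value was -1.42 (edgeR adjusted p = 9.69e-07), and without injured-father library 2 it was -0.34 (adjusted p = 0.998). Each leaves 1 injured-father heart, whose spread is assumed to equal that between the 2 uninjured-father hearts.

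Other values of smallest p in each direction passed no test. Endocardial-like nuclei had 0.33 for Col14a1, and pericyte-like nuclei 0.13 for Col5a2 and 0.31 for Col4a3. Macrophage or monocyte-like nuclei had -0.70 for Col15a1, 0.13 for Col14a1 and 0.12 for Col6a2, and cardiomyocyte-like nuclei 0.41 for Col4a6 and 0.54 for Col25a1. Smooth muscle-like nuclei had -0.80 for Col18a1 (191 and 106 against 243 and 285 TMM-scaled CPM) with 0.90 for Col6a6 and 0.49 for Col4a4, the latter from 16, 13, 20 and 5 UMIs. Valve interstitial-like nuclei had -0.91 for Col6a6 and -0.52 for Col5a1 (514 and 542 against 679 and 845), with 0.41 for Col14a1. Vascular endothelial-like nuclei had 0.52 for Col28a1 (32.3 and 52.6 against 30.9 and 28.8). In all nuclei Col8a1 had -0.46 (adjusted p = 0.377), Col28a1 0.61 and Col6a3 -0.28.

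Genes that modify, export, trim, cross-link or bind collagen gave 0 calls by edgeR among 58 tested of 63 listed in fibroblast-like nuclei. There 0.0325% of all genes were called. The 58 had 20 positive and 38 negative values and a median of -0.05. Of the 18 genes of hydroxylation and folding 15 were negative. P3h2, a prolyl 3-hydroxylase, stood at 72.2 and 82.8 against 54.2 and 54.2 TMM-scaled CPM (0.52, SE 0.15), and Colgalt2, a collagen galactosyltransferase, at 249.8 and 228 against 321 and 306 (-0.39, SE 0.13). Among propeptide proteases Adamts14 stood at 75.8 and 34.4 against 102 and 105 (-0.93, SE 0.26) and Tll1 at 4.73 and 7.90 against 3.09 and 1.20 (1.46, SE 0.46). Lox, a cross-linking oxidase, stood at 9.24 and 12.6 against 5.15 and 8.08 (0.79, SE 0.32). The cross-linking gene Loxl2 had -0.22, the proteoglycans Aspn and Ogn -0.27 and -0.13, the receptors Itga2 and Adgrg1 0.61 and 1.07, and the export genes Creb3l1 and Mia3 -0.21 and 0.05. Each of these had an edgeR adjusted p of 1.000.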

How the data were processed

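The authors deposited 1 UMI count matrix per library, from single nuclei sorted against Ter119 per the labels' protocols. The file headers name Cell Ranger 6.0.1, and Seurat 4.0 is named in the submitters' processing notes. The genome build is not given in the sources used here. From the deposited counts, nuclei with at least 500 UMIs, 300 genes and at most 5% mitochondrial UMIs were kept, and doublets called by Scrublet (9.62% to 14.9% of nuclei) were removed. Nuclei were clustered with scanpy 1.11.5 (3000 variable genes without collagens, 30 components, Leiden resolution 1.0), and clusters were named from 17 marker lists. Clusters with 732 nuclei in all were left unnamed by hand after their leading genes were seen. Among them was the cluster of 274 nuclei with endocardial leading genes. UMIs were summed per class and library, and the classes tested, each with at least 50 nuclei in every library, were fitted in edgeR 4.0.16 (TMM scaling, quasi-likelihood test, filterByExpr with a minimum count of 10, Benjamini-Hochberg adjustment over all genes). The scripts were tested on simulated data. Differences between classes used the same test with library as a block and a class by father term.

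The collagens, gene lists and tests were chosen with earlier results of these data known. All 44 collagens are accounted for, those reaching 20 CPM are described, and father differences are named for collagens past the threshold and otherwise for up to 2 per direction of smallest p in each class (4 in fibroblast-like nuclei, 2 per machinery list). Alternatives were DESeq2 1.42.0, limma 3.58.1 (voom), other scaling, no count filter, other nucleus filters and classings, leaving out each library and a replicate block. Equal replicate numbers are not said to mark a shared litter or day. Counting error aside, 1 heart per library and 2 libraries per group limit the precision.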

Additional observations from a re-analysis of the deposited data

Results flagged for a closer look

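The father difference of Col8a1 differed between valve interstitial-like and fibroblast-like nuclei by 1.68 on the log2 scale (SE 0.22, edgeR adjusted p = 9.34e-11), being 1.17 in the former and -0.52 in the latter. It passed in each edgeR alternative run for it that kept all 4 libraries, such as other scaling and no count filter. DESeq2, limma-voom and the replicate block were not run for differences between classes. The father difference of Col25a1 differed between endocardial-like and pericyte-like nuclei by 1.53 (SE 0.22, edgeR adjusted p = 0.00168), being 1.37 and -0.15, but with nuclei classed by marker score it was 1.33 and did not pass (adjusted p = 0.267). Both pairs of classes were chosen after their values were seen, and each group had 2 hearts.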

How the results depend on the processing

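Counts of collagens called with edgeR or the named tool moved as follows. In all nuclei (0) DESeq2, no count filter and the replicate block each called 1, Col25a1, and leaving out a library gave 0 to 2 (Col25a1, and Col8a1 without injured-father library 2). Without a count filter 1 was called in pericyte-like (Col15a1), macrophage or monocyte-like (Col8a1), Sntg1/Piezo2 (Col8a1) and Cmah/Gfpt2 nuclei (Col8a1), against 0 each, and the replicate block called 1 in Cmah/Gfpt2 nuclei (Col8a1). It changed no other collagen count. In valve interstitial-like nuclei (0) Col8a1 was the 1 call with limma-voom, with no count filter, with the stricter nucleus filter and with collagens kept in the clustering. With classes by marker score 0 were called in endocardial-like nuclei and 0 for their difference from pericyte-like nuclei, against 1 each, and no count filter called 2 for that difference (Col25a1 and Col4a4). Leaving out a library gave 0 to 1 calls in fibroblast-like (Col27a1), vascular endothelial-like and pericyte-like (Col15a1), macrophage or monocyte-like, valve interstitial-like (Col8a1) and Sntg1/Piezo2 nuclei (Col27a1 or Col8a1), and 0 to 2 in Cmah/Gfpt2 nuclei. Machinery genes called in fibroblast-like nuclei (0) were 1, Adamts14, with no count filter and with the replicate block, and 0 to 7 on leaving out a library, 7 being without injured-father library 1. By marker score 13 collagens were highest in fibroblast-like nuclei, against 8. Leaving out a library leaves 1 heart in a group, assumed to vary like the other group. The share of all genes called in these alternative runs is not given here, so their counts are no result about collagens. Causes were not tested.

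Among 55 single-gene results 657 alternative values kept direction and call, and 17 turned sign, none of a gene called. By marker score these were Col14a1 in endocardial-like (-0.30), macrophage or monocyte-like (-0.14) and valve interstitial-like nuclei (-0.17), Col4a4 in smooth muscle-like (-0.60) and Col6a2 in macrophage or monocyte-like nuclei (-0.23). With doublets kept they were Col25a1 in fibroblast-like (-0.18), Col4a3 in pericyte-like (-0.27) and Col6a2 in macrophage or monocyte-like nuclei (-0.53), and with the stricter nucleus filter Col14a1 in endocardial-like nuclei (-0.33). On leaving out a library, ranges that crossed 0 were -0.05 to 0.50 for Col4a6 in fibroblast-like and -0.05 to 0.68 in Grm8/Hunk nuclei, -0.37 to 0.93 for Col14a1 in endocardial-like and -0.31 to 0.48 in macrophage or monocyte-like nuclei. They were -0.05 to 0.82 for Col4a3 in pericyte-like, -0.08 to 0.37 for Col6a2 in macrophage or monocyte-like and -0.14 to 0.23 for Col4a5 in Cmah/Gfpt2 nuclei. Small classes limit depth: Col25a1 in endocardial-like nuclei of uninjured-father library 2 rests on 52 UMIs.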
